A study of Mus musculus with 6 samples.

Results

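Transcripts of 35 tight junction, adherens junction, desmosome and polarity genes were examined in intestinal tissue of mice with colitis. The colitis was induced with dextran sulfate sodium (DSS), which damages the lining of the gut. The genes were listed by symbol, with earlier results of these data known. Each matched 1 of the 55335 rows of the deposited count table. The samples fall into 2 groups of 3 libraries, labelled WT and Trmt6-/-, and all 6 mice had received this treatment, so each comparison is between genotypes within colitis. Trmt6 codes for the partner subunit, without catalytic activity, of the methyltransferase that makes 1-methyladenosine in tRNA. By its title, the series asks how TRMT6 bears on this colitis through translation, while these libraries measure RNA levels only. The labels give no strain, age, sex, dose of DSS or intestinal segment, and they do not say whether the deletion was restricted to a cell type. The 3 libraries labelled Trmt6-/- are named KO72, KO73 and KO75, and the WT libraries WT185, WT186 and WT187.

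Several facts about the libraries bear on the values below. Total counts were 15213972 to 16972758 per library, and 14107 genes were abundant enough to test. The Trmt6 transcript itself was not lower under the Trmt6-/- label. It stood higher without overlap, at 39.8, 34.2 and 36.2 CPM (counts scaled to library size) against 30.9, 18.7 and 23.1 CPM in WT. The log2 fold change of 0.60 ± 0.21 did not pass (unadjusted p = 0.0256, adjusted p = 0.335, by the edgeR test described below). Over all genes, 9.7% were higher without overlap. Every direction below therefore rests on the labels. The labels do not say which bases of the gene were deleted. Of 8 distal colon genes, Hoxb13, Hoxa13 and Hoxd13 had no count in any library. The 3 abundant enough to test did not overlap between groups, against 18.7% of all genes, and 0 passed adjustment. Car4 stood at 200 to 433 CPM with the Trmt6-/- label against 139 to 162 CPM in WT, and Prdx6 at 283 to 484 against 250 to 281 CPM. Aqp8 was lower, at 0 to 0.698 against 0.959 to 54.5 CPM. Lct and 6 markers of Paneth cells, which belong to the small intestine, had counts in every library. Lct stood at 119 to 771 CPM with the Trmt6-/- label and at 756 to 3192 CPM in WT. The Paneth markers summed to 3766 to 7389 CPM and 973 to 8259 CPM. The segment that each library came from was not tested. Libraries of 1 group differed in markers of intestinal position: the summed level of 4 ileal markers ran from 179 to 832 CPM with the Trmt6-/- label and from 35.6 to 813 CPM in WT. All 4 had a log2 fold change above 0, with 1 (Slc51b) under 0.05 by unadjusted p. Slc51b was higher without overlap, at 75.6 to 99.7 CPM against 31.3 to 54.0 CPM. The summed level of 10 general epithelial markers ran from 15078 to 17079 CPM with the Trmt6-/- label and from 11849 to 13543 CPM in WT, without overlap, with 1 gene of the list (Tspan8) under 0.05 by unadjusted p. Of 10 leukocyte markers, Cd74 ran from 353 to 750.4 CPM with the Trmt6-/- label and from 725 to 1896 CPM in WT, and it made up most of a summed level of 429 to 1139 CPM and 871 to 2381 CPM. The pan-leukocyte gene Ptprc overlapped, at 23.3 to 157 CPM and 47.3 to 164 CPM. Cd74 and Ptprc did not order the libraries alike. WT186 held 1680 CPM of Cd74 and 65.0 CPM of Ptprc, and KO75 held 666 CPM and 157 CPM. Of 9 leukocyte markers tested, 8 had a log2 fold change below 0, with 1 (Cd74) under 0.05 by unadjusted p. Itgam was higher without overlap, at 6.10 to 12.6 CPM against 4.12 to 5.69 CPM in WT. Fibroblast markers summed to 14.2 to 27.1 CPM and 21.8 to 32.4 CPM, of which Vim gave 3.50 to 16.3 CPM and 12.1 to 24.2 CPM. Smooth muscle markers other than Mylk summed to 7.90 to 18.3 CPM and 14.5 to 18.5 CPM. Both sums were far below that of the epithelial markers in every library. Among epithelial cell types, 7 of 7 goblet markers had a log2 fold change above 0, with 1 (Muc2) under 0.05 by unadjusted p. Of 7 enteroendocrine markers 6 were lower without overlap, as were 9.03% of all genes. Of these, 4 (Chga, Chgb, Cck and Sct) were under 0.05 by unadjusted p, against 5.94% of all genes lower. All 6 Paneth markers lay above 0 and 4 of 5 tuft cell markers below 0, with 0 under 0.05. Of all genes tested, 12.1% had an unadjusted p below 0.05. None of these markers passed adjustment. The part of these cell types in the results below was not tested. The part of epithelial content in the results below was not tested. A fit with an epithelial covariate is given, but that index also separated the groups. It was 10.75, 10.72 and 10.37 (KO72, KO73, KO75) against 10.29, 10.22 and 10.35 (WT185, WT186, WT187). Epithelial content and genotype therefore cannot be told apart in that fit. In bulk RNA, fewer cells of a type and less RNA per cell cannot be told apart.

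Neighbouring epithelial cells are joined near their apical side by tight junctions, which seal the space between them, and below these by adherens junctions and desmosomes, which hold the cells together. Claudins are membrane proteins that set how leaky the tight junction is: some form pores for ions or water, and others close the gap. Scaffold proteins link claudins and occludin to the actin cytoskeleton, and polarity complexes place the junction along the side of the cell. In the intestine, loss of sealing claudins and gain of the pore-forming claudin-2 are well known in inflammatory bowel disease.

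The upstream sequences of 4 claudin genes are shown because the claudins carried the contrast between pore-forming and other junction genes: Cldn2 and Cldn15 are pore-forming, Cldn4 had the largest log2 fold change above 0 among the members, and Cldn7 was the most abundant claudin on average. Each is a run of 150 bases, 5′ to 3′ on the gene's strand, from RefSeq on GRCm38.p6. They are chrX:139800658-139800807 (plus strand), chr5:136967694-136967843 (plus), chr5:134946935-134947084 (minus) and chr11:69964629-69964778 (plus). Each run ends at the base before the RefSeq start, except that of Cldn15, which ends 25 bases earlier to leave out annotated exon bases and which lies inside the longer GENCODE gene. Capitals mark matches to the motifs named after the sequences.
Cldn2: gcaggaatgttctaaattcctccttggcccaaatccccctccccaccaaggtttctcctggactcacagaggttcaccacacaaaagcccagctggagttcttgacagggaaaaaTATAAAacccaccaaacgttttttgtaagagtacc
Cldn15: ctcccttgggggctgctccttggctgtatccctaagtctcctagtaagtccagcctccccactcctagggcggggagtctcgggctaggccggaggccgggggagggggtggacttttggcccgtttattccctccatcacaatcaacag
Cldn4: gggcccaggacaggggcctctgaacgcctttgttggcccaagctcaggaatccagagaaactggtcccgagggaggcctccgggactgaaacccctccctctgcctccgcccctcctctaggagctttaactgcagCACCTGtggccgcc
Cldn7: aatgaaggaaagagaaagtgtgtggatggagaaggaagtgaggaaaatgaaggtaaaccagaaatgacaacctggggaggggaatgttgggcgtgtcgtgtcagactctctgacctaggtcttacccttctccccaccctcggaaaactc

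The 250 bases upstream of the RefSeq start were searched on both strands for 6 motifs, in 25 members with an entry and in 27025 genes in all. The TATA box (TATAAA) was found upstream of Cldn2, 35 bases before its start, and of Marveld2, and 3504 of the 27025 genes held it. The E-box bound by the Snail and Zeb repressors of epithelial genes (CAGGTG) was found upstream of 7 of the 25 members (Cldn4, Crb3, Epcam, F11r, Pard6b, Patj and Tjp3), against 17.1% of all genes. In Cldn4 it lay on the strand opposite to the gene, 14 bases before the start. The motif of GATA factors (AGATAA), that of CDX factors (TTTATNG) and that of grainyhead-like factors (AACNGGTT) were each found upstream of 1 member (Tjp3, Epcam and Cgn), against 10.3%, 10.2% and 1.71% of all genes. The motif of HNF1 was found upstream of 0 members and of 0.0629% of all genes. The windows of Cldn15 and Cldn7 held none of the 6. A reverse-strand TATA box can share letters with a CDX motif. These matches describe the letters only.

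Of the 35 members 34 passed the low-count filter, and 0 of 34 passed the genotype test after adjustment over all genes (edgeR quasi-likelihood F test with Benjamini-Hochberg adjustment), where 0.0425% of all genes did (0.0354% higher with the Trmt6-/- label and 0.00709% lower). DESeq2 also called 0 of the 34, against 4.49% of all genes with an adjusted p from that tool. Limma-voom called 0 of all 14107 genes, members included. At an unadjusted p below 0.05 there were 8 members (23.5%), against 12.1% of all genes tested. Of these, 6 were higher in the libraries labelled Trmt6-/- (Cldn4, Cldn12, Marveld3, Ctnnd1, Dsg2 and Pkp2; 6.15% of all genes) and 2 were lower (Cldn15 and Mylk; 5.94% of all genes). The adjusted p of these 8 ran from 0.290 to 0.398. The count was 1 without KO72, where the share of all genes was 9.59%. It was 3 without KO73 (7.14% of all genes) and 3 without KO75 (10.3%), 4 without WT186 (11.5%), 2 without WT187 (9.19%) and 1 with an epithelial covariate (9.44%). The groups did not overlap in 10 members (29.4%), against 18.7% of all genes. Of these, 8 were higher with the Trmt6-/- label (9.7% of all genes) and 2 were lower (9.03%).

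The median log2 fold change of the 34 members was 0.16, with 26 above 0 and 8 below, beside a median of -0.033 over all genes tested, of which 46.1% were above 0. The median was -0.068 with an epithelial covariate. By role, the medians were 0.062 for 6 scaffolds, 0.24 for 5 polarity genes, 0.17 for 6 adherens and adhesion genes and 0.29 for 4 desmosome genes. All members of the polarity, adherens and desmosome groups lay above 0, without passing the test, but with the epithelial covariate Pard3, Cdh1, Epcam, Dsc2 and Jup lay below 0. The plot of fold changes by role shows that the widest errors belonged to Cldn8 and Cgnl1, the least abundant of the members tested.

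**Figure D1:**
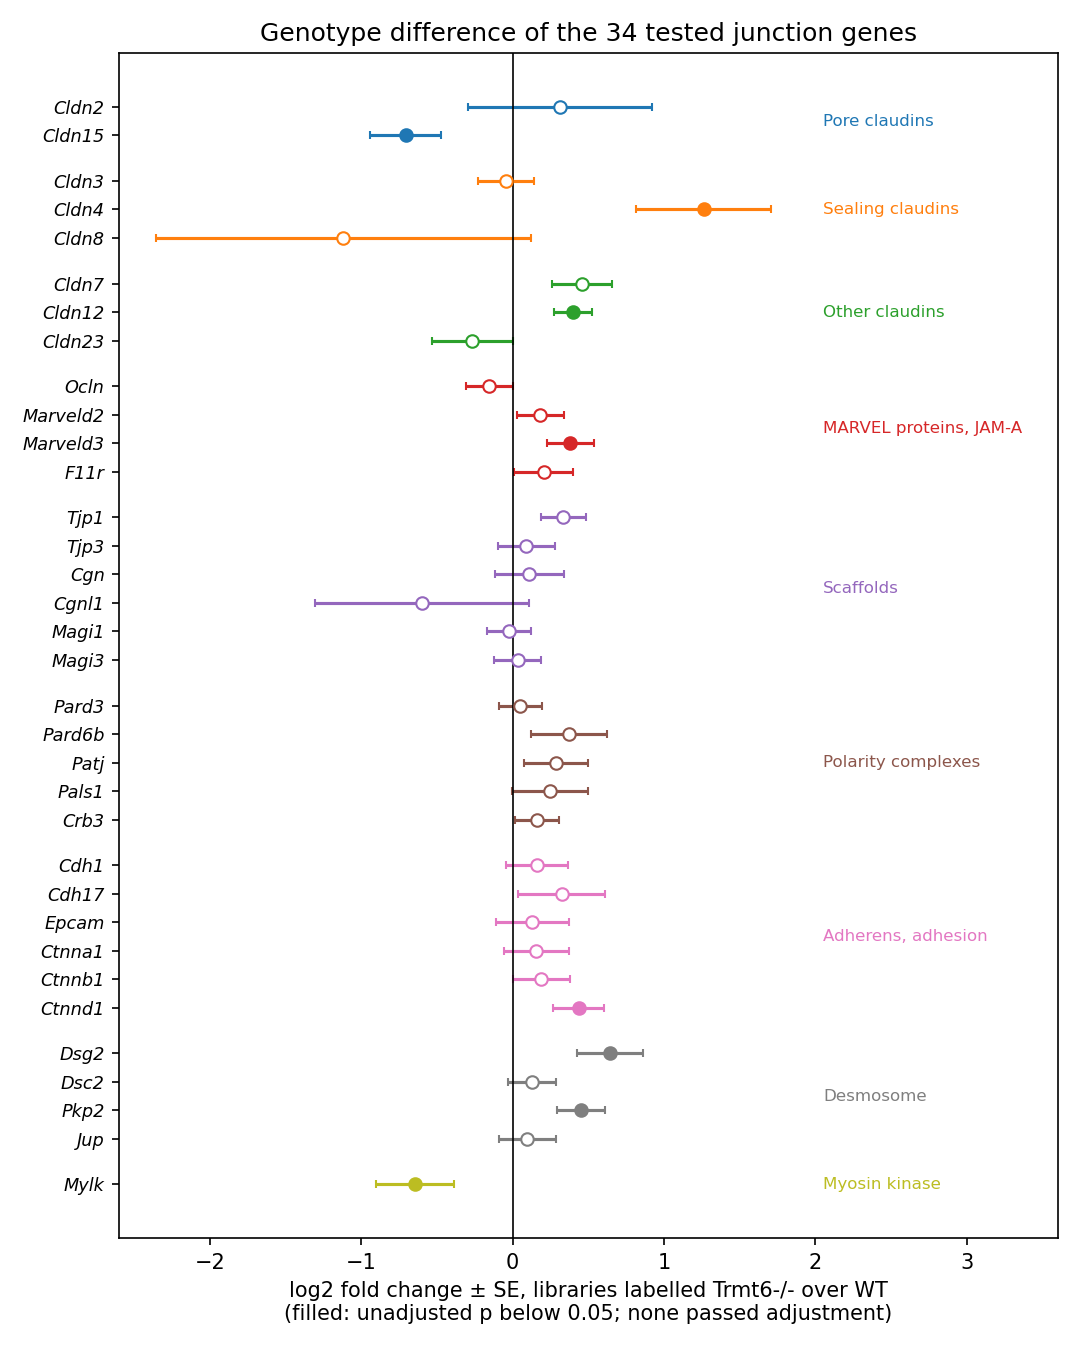
Log2 fold change ± SE (horizontal axis) of the 34 tested junction genes, ordered by role; filled points had an unadjusted p below 0.05, and 0 passed adjustment. Cldn15 and Mylk lie below 0, whereas Cldn4, Cldn12, Marveld3, Ctnnd1, Dsg2 and Pkp2 lie above 0.

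The 2 pore-forming claudins were distributed differently over the libraries. Cldn15, the sodium-permeable claudin of the small intestine (chr5:136966616-136975858), stood at 255, 347 and 359 CPM (KO72, KO73, KO75) against 426, 639.9 and 502 CPM (WT185, WT186, WT187). All 3 libraries labelled Trmt6-/- lay below all WT libraries. Its fold change was -0.71 ± 0.24 on the log2 scale (SE; unadjusted p = 0.0202, adjusted p = 0.309), which did not pass. It was -0.35 ± 0.21 with an index of position (ileal minus proximal markers) as a covariate and -0.38 ± 0.39 with the epithelial covariate.

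Cldn15 was set beside 4 markers of the proximal small intestine, which did not follow a common order. Gata4, which encodes a transcription factor of the upper small intestine, was at 82.2, 132.1 and 132.4 CPM (KO72, KO73, KO75) against 156, 271 and 214 CPM (WT185, WT186, WT187). The order of the 6 libraries was the same for Cldn15 and Gata4, lowest in KO72 and highest in WT186. The lactase gene Lct stood at 119, 771 and 664 CPM with the Trmt6-/- label against 756, 3192 and 2592 CPM in WT, with KO73 above WT185. Fabp1, a fatty acid binding protein gene, was highest in KO75 at 2931 CPM, against 511 to 2616 CPM in WT, and Cybrd1, a duodenal iron reductase gene, was lowest in KO73 at 0.698 CPM and highest in WT186 at 21.7 CPM. Over the 4 proximal markers, the summed level ran from 501 to 3728 CPM against 1427 to 6102 CPM, and Gata4 and Lct were lower at an unadjusted p below 0.05. The index of position used as the regional covariate holds Gata4, Lct and Slc51b, which themselves differed at an unadjusted p below 0.05. It was 0.6114, -1.0036 and -3.6708 (KO72, KO73, KO75) against -1.6877, -7.4069 and -6.0386 (WT185, WT186, WT187). Apart from KO75 against WT185, each library labelled Trmt6-/- lay above each WT library. Position and genotype therefore cannot be fully told apart in fits with that covariate, for any gene. The part of intestinal position in the Cldn15 values was not tested.

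Cldn2, the cation and water pore of crypt cells (chrX:139800828-139811386), stood at 170.2, 111 and 96.6 CPM (KO72, KO73, KO75) against 208, 40.1 and 56.0 CPM (WT185, WT186, WT187). Both the highest and the lowest libraries were WT, so the groups overlapped. Its fold change was 0.31 ± 0.61 on the log2 scale (adjusted p = 0.897). It turned to -0.57 ± 0.28 with the regional covariate, and it was 1.41 without WT185, -0.069 without WT186 and -0.0094 without WT187.

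WT185, the library with the most Cldn2, also had the highest summed level of 10 crypt genes, of which Olfm4 gave the most counts, and KO72 had the highest sum in its group. Olfm4, a gene of crypt base stem cells, stood at 484, 297 and 9.18 CPM (KO72, KO73, KO75) against 1536 CPM in WT185, 369 CPM in WT186 and 773 CPM in WT187. Axin2, Sox9 and Ascl2, which mark Wnt-responsive crypt cells, were highest in KO72, at 116 against 99.6 CPM in WT185 for Axin2, 52.1 against 47.2 CPM for Sox9 and 13.8 against 13.1 CPM for Ascl2. Over the 10 genes the summed level ran from 337 to 1439.7 CPM with the Trmt6-/- label and from 849.7 to 2809 CPM in WT, and none of the 10 genes reached an unadjusted p of 0.05. KO75 held 96.6 CPM of Cldn2 with the lowest Olfm4 of the 6 libraries. The part of crypt content in the Cldn2 values was not tested.

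**Figure D2:**
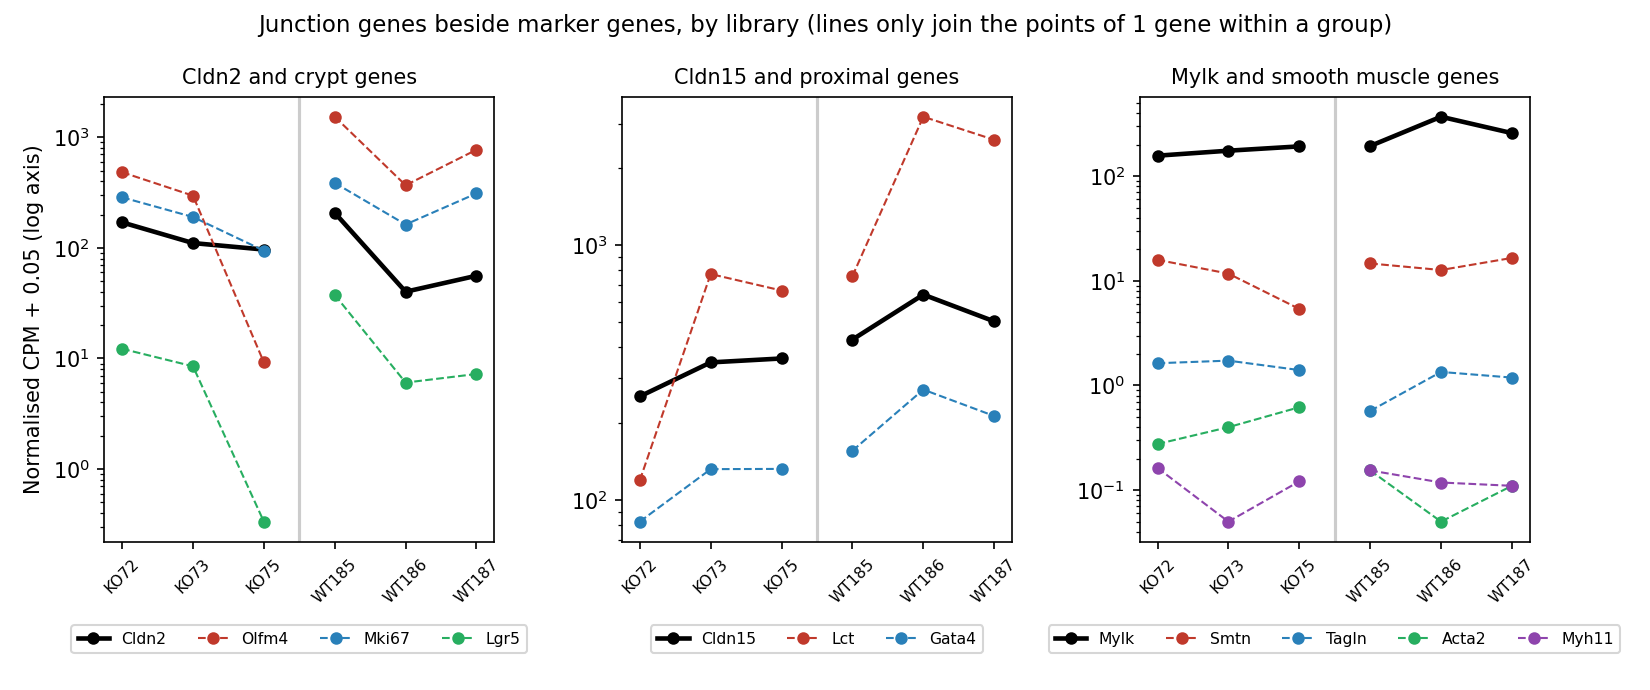
Normalised CPM plus 0.05 (log axis) in each library for Cldn2 beside 3 crypt genes, Cldn15 beside 2 proximal genes and Mylk beside 4 smooth muscle genes; solid lines mark the junction gene. Cldn15 and Gata4 order the libraries alike, from KO72 to WT186, and Mylk stands at 157 to 369 CPM where Acta2 and Myh11 stay under 1 CPM.

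Among the sealing claudins, Cldn3 did not separate the groups and Cldn4 was the member with the largest log2 fold change above 0. Cldn3 (chr5:134986214-134987472) stood at 374, 394 and 328 CPM (KO72, KO73, KO75) against 398, 319 and 412 CPM (WT185, WT186, WT187) (log2 fold change -0.042 ± 0.18, adjusted p = 0.960). Cldn4 (chr5:134945119-134946934) stood at 56.2, 50.4 and 20.6 CPM with the Trmt6-/- label against 11.6, 15.5 and 26.0 CPM in WT. KO72 and KO73 lay above the WT libraries, but KO75 lay below WT187, so the groups overlapped. The log2 fold change of Cldn4 came to 1.26 ± 0.44 (unadjusted p = 0.0256, adjusted p = 0.335), and it was -0.14 ± 0.42 with the epithelial covariate.

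The remaining sealing claudins were scarce. Cldn8, which is known as a barrier claudin of the distal colon, had 37, 30 and 1 counts in KO72, KO73 and KO75 and 150, 7 and 16 counts in WT185, WT186 and WT187. Its fold change was -1.12 ± 1.24 on the log2 scale (adjusted p = 0.798), and it was 0.998 without WT185, the library that held most of its WT counts. It was -3.31 ± 0.70 with the regional covariate (unadjusted p = 0.00255, adjusted p = 0.0911) and -6.15 ± 2.80 with the epithelial covariate. Cldn1, a claudin that seals the epidermis, was the member under the filter, with 1, 6 and 1 counts in the libraries labelled Trmt6-/- and 0 in each WT library. A count of 0 allows up to 0.156 to 0.205 CPM in a WT library (3 counts of its scaled total; counting error only). KO72 and KO75 lay below that limit and KO73, at 0.419 CPM, above it, so a difference between the groups could not be resolved at this depth. Of 8 markers of squamous epithelium, Krt13, Trp63 and Sprr3 had no count in any library, and Krt5, Krt14, Krt4 and Dsg3 stayed under 1 CPM. Sprr1a, the other gene of that list, stood at 1.92, 0.838 and 1.78 CPM (KO72, KO73, KO75) against 0.208, 0.409 and 0.539 CPM (WT185, WT186, WT187).

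Claudins without a single assigned role included the most abundant member of the family. Cldn7, a claudin of the lateral membrane whose loss in mice causes intestinal inflammation (chr11:69964779-69967885), stood at 779.6, 865 and 695 CPM (KO72, KO73, KO75) against 545, 519.5 and 639 CPM (WT185, WT186, WT187). The libraries labelled Trmt6-/- all lay above WT (log2 fold change 0.46 ± 0.20, unadjusted p = 0.0539, adjusted p = 0.426), and the value was 0.20 ± 0.31 with the epithelial covariate. Cldn12 (chr5:5489537-5514958), which is linked to calcium passage, showed a smaller gap with little spread, at 63.7, 58.6 and 69.4 CPM against 50.3, 47.2 and 47.9 CPM. Its fold change was 0.40 ± 0.13 on the log2 scale (unadjusted p = 0.0170, adjusted p = 0.290), and the groups did not overlap. Cldn23, which is expressed in differentiated enterocytes, stood at 29.6, 25.6 and 22.4 CPM against 25.3, 24.2 and 43.9 CPM (log2 fold change -0.27 ± 0.27, adjusted p = 0.772), with WT187 apart from the rest.

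**Figure D3:**
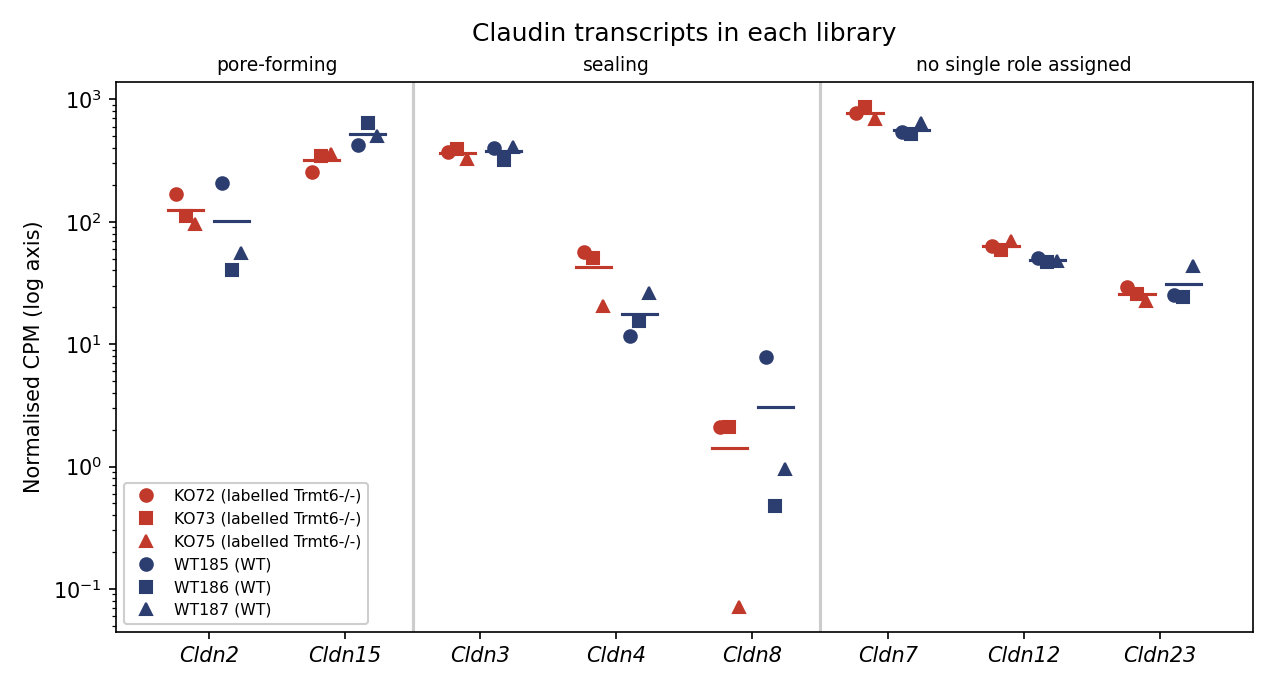
Normalised CPM on a log axis of 8 claudin genes in each library, with horizontal bars for the group means of 3 libraries. Cldn15 is lower and Cldn7 and Cldn12 are higher in each library labelled Trmt6-/- than in any WT library, whereas Cldn2, Cldn3, Cldn4, Cldn8 and Cldn23 overlap between groups.

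The claudins were also compared with each other within a library, on CPM per kilobase of exon, a scale on which genes of different length can be set side by side. The summed level of the 9 member claudins was 932 ± 77.0 CPM per kb in the libraries labelled Trmt6-/- and 906 ± 47.5 CPM per kb in WT (SD, n = 3 each), and Cldn3, Cldn7 and Cldn15 together made up 87.8% to 94.8% of it in every library. Cldn7 took 43.0%, 44.0% and 41.7% of this pool (KO72, KO73, KO75) against 31.3%, 30.8% and 34.2% (WT185, WT186, WT187). Cldn15 took 12.9%, 16.2% and 19.8% in the libraries labelled Trmt6-/- and 22.5%, 34.8% and 24.7% in WT. The share of Cldn3 was 31.1% ± 0.741 against 32.9% ± 3.24 (SD, n = 3 each). The size of the pool overlapped between the groups, and it held more Cldn7 and less Cldn15 in each library labelled Trmt6-/- than in any WT library. These shares were computed after the values had been seen and carry no test.

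**Figure D4:**
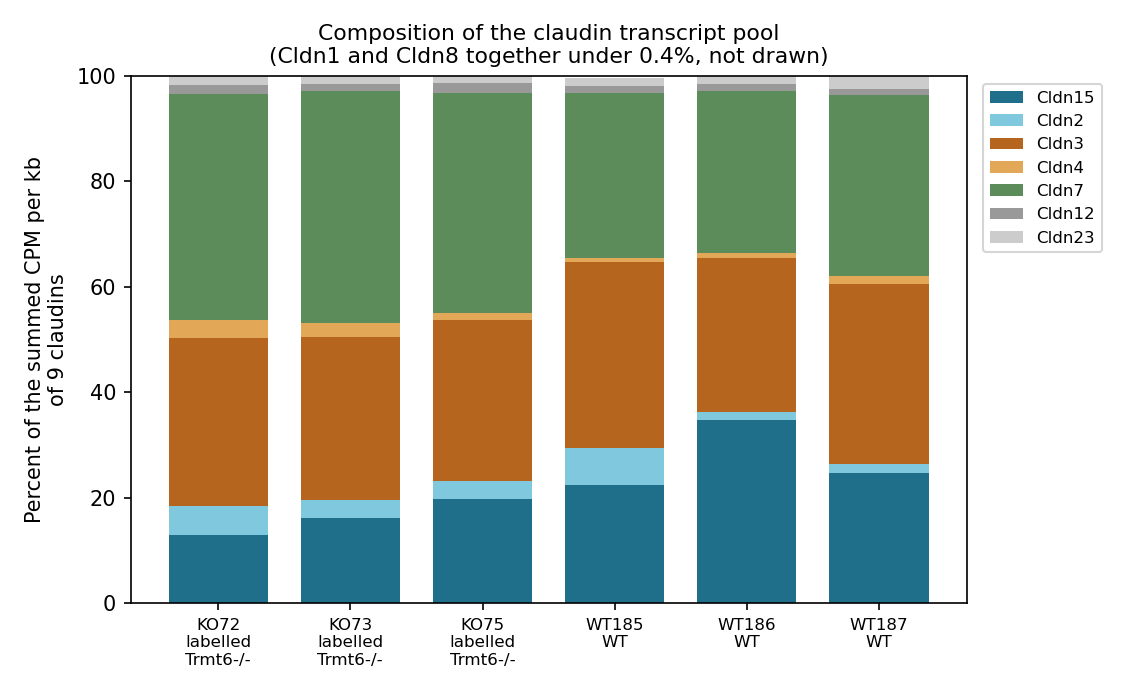
Share of each claudin, in percent of the summed CPM per kb of 9 claudins, stacked for each library. Cldn7 makes up 41.7% to 44.0% in the libraries labelled Trmt6-/- and 30.8% to 34.2% in WT, and Cldn15 makes up 12.9% to 19.8% and 22.5% to 34.8%.

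Pore-forming claudins were set against sealing claudins and scaffolds as differences of mean log2 CPM within a library. The pore minus sealing difference was 4.44, 3.98 and 5.54 (KO72, KO73, KO75) against 5.18, 5.19 and 4.77 (WT185, WT186, WT187), so KO75 lay above all WT libraries and the other two below. The mean difference between groups was -0.39, and it was -0.054 without KO73 and -0.83 without KO75. The scarce Cldn1 and Cldn8 weigh as much here as Cldn3, and without the least abundant gene of each side the difference was -0.82. The pore minus scaffold difference was 1.31 ± 0.17 against 1.37 ± 0.40 (SD, n = 3 each), and its 2 genes stood on opposite sides: Cldn15 minus scaffolds was 2.0 ± 0.39 against 2.74 ± 0.42, and Cldn2 minus scaffolds was 0.63 ± 0.38 against 0.0049 ± 1.14. As a ratio of CPM per kb, Cldn2 to Cldn15 was 0.426, 0.204 and 0.172 (KO72, KO73, KO75) against 0.312, 0.0400 and 0.0712 (WT185, WT186, WT187). Cldn15 exceeded Cldn2 in every library on that scale.

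Among other membrane proteins of the tight junction, Marveld3 separated the groups and occludin did not. Occludin (Ocln), which steadies the junction strands, stood at 126, 136 and 107 CPM (KO72, KO73, KO75) against 123, 142 and 146 CPM (WT185, WT186, WT187) (log2 fold change -0.15 ± 0.16, adjusted p = 0.774). The groups overlapped. Marveld3, a relative of occludin, stood at 56.6, 77.6 and 72.4 CPM against 52.7, 55.1 and 50.9 CPM (log2 fold change 0.38 ± 0.16, unadjusted p = 0.0449, adjusted p = 0.398), without overlap. Tricellulin (Marveld2), which seals the corners where 3 cells meet, and JAM-A (F11r), an adhesion molecule of the immunoglobulin family, had log2 fold changes of 0.18 ± 0.15 and 0.20 ± 0.19.

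None of the 6 scaffolds had an unadjusted p below 0.05. ZO-1 (Tjp1), which anchors claudins to actin, stood at 208, 225 and 199 CPM (KO72, KO73, KO75) against 150.01, 172 and 178 CPM (WT185, WT186, WT187). Its groups did not overlap, but the log2 fold change of 0.34 ± 0.15 did not pass (unadjusted p = 0.0607, adjusted p = 0.446). ZO-3 (Tjp3) was measured at 349 ± 27.7 against 328 ± 53.5 CPM and cingulin (Cgn), which binds ZO proteins and myosin, at 276 ± 40.2 against 255 ± 58.4 CPM (SD, n = 3 each). The multi-PDZ scaffolds Magi1 and Magi3 had log2 fold changes of -0.026 ± 0.15 and 0.034 ± 0.15. Cgnl1, the paralog of cingulin, was scarce at 54, 32 and 14 counts against 123, 20 and 29 counts, and its log2 fold change of -0.60 ± 0.70 became 0.46 without WT185, -1.84 ± 0.37 with the regional covariate (unadjusted p = 0.00200) and -2.02 ± 1.26 with the epithelial covariate.

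The polarity genes encode the PAR and Crumbs complexes that mark the apical side. Their log2 fold changes ran from 0.051 for Pard3 to 0.37 for Pard6b, with Patj at 0.28, Pals1 (listed under its older symbol Mpp5) at 0.24 and Crb3 at 0.16. Patj, the PDZ scaffold of the Crumbs complex, was measured at 213 ± 33.1 against 175 ± 36.3 CPM (SD, n = 3 each). No group of values was separated by genotype in this set.

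Among adhesion genes, E-cadherin and EpCAM overlapped between groups. E-cadherin (Cdh1), the main adhesive protein of adherens junctions (chr8:106603351-106670246), stood at 1096, 1020.4 and 899.9 CPM (KO72, KO73, KO75) against 991, 818 and 893 CPM (WT185, WT186, WT187) (log2 fold change 0.16 ± 0.20, adjusted p = 0.829). Epcam, which steadies claudin-7 at the membrane (chr17:87635979-87651129), stood at 1679, 1771 and 1299 CPM against 1412, 1319 and 1607 CPM (0.13 ± 0.24, adjusted p = 0.888). It was the most abundant member per length, at 690.0 ± 90.3 CPM per kb over all libraries, followed by the intestinal cadherin gene Cdh17 at 435 ± 92.2 and Cldn7 at 346 ± 68.9 (SD, n = 6).

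The catenins link cadherins to actin. Beta-catenin (Ctnnb1) was measured at 830.1 ± 61.7 against 728 ± 42.9 CPM (SD, n = 3 each), without overlap, and its log2 fold change of 0.19 ± 0.19 did not pass (adjusted p = 0.767). Alpha-catenin (Ctnna1) had a log2 fold change of 0.16 ± 0.22. The p120-catenin gene Ctnnd1, which keeps cadherins at the surface (chr2:84600071-84650765), stood at 114, 122 and 121 CPM (KO72, KO73, KO75) against 70.1, 101 and 92.7 CPM (WT185, WT186, WT187). Its fold change was 0.44 ± 0.17 on the log2 scale (unadjusted p = 0.0372, adjusted p = 0.374), and it was 0.70 ± 0.17 with the regional covariate. Exons of another annotated gene, Gm28635, cover 61.2% of the Ctnnd1 exon bases, so with no overlap option in the count header reads there fall to neither gene, and the level of Ctnnd1 is uncertain.

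The desmosome genes Dsg2 and Pkp2 separated the groups, and Dsc2 and Jup did not. Desmoglein-2 (Dsg2), the desmosomal cadherin of the intestine (chr18:20558074-20604521), stood at 596, 538 and 378 CPM (KO72, KO73, KO75) against 330.1, 303 and 335 CPM (WT185, WT186, WT187). Its fold change was 0.64 ± 0.22 on the log2 scale (unadjusted p = 0.0217, adjusted p = 0.318), and 0.096 ± 0.27 with the epithelial covariate. Plakophilin-2 (Pkp2), a plaque protein (chr16:16213318-16272712), stood at 94.3, 91.1 and 105.5 CPM against 83.1, 62.8 and 66.7 CPM (0.45 ± 0.16, unadjusted p = 0.0235, adjusted p = 0.327). Desmocollin-2 (Dsc2) was measured at 287 ± 26.4 against 262 ± 11.4 CPM and plakoglobin (Jup) at 383 ± 57.1 against 358 ± 32.1 CPM (SD, n = 3 each).

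Mylk encodes myosin light chain kinase, which contracts the actomyosin belt of epithelial cells and opens the tight junction, and which also drives contraction of smooth muscle. It stood at 157, 175 and 192 CPM (KO72, KO73, KO75) against 194, 369 and 258 CPM (WT185, WT186, WT187) (chr16:34745210-35002420). The groups did not overlap, although KO75 and WT185 nearly met, and Mylk had a log2 fold change of -0.65 ± 0.26 (unadjusted p = 0.0400, adjusted p = 0.384). With the regional covariate it was -0.16 ± 0.21, and it was -0.36 without WT186. Of 9 smooth muscle markers other than Mylk, 7 (Acta2, Myh11, Cnn1, Des, Actg2, Lmod1 and Synpo2) stayed under 1 CPM in every library, and Lmod1 had no count. The summed level of the 9 ran from 7.90 to 18.3 CPM with the Trmt6-/- label and from 14.5 to 18.5 CPM in WT. These CPM are not scaled to gene length. The part of smooth muscle in the Mylk values was not tested. Endothelial markers, 5 of 10 of which stayed under 1 CPM, summed to 12.4 to 18.5 CPM and 8.27 to 10.3 CPM.

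Other junction genes were counted from lists of the pathway. None of the 113 tested passed after adjustment by edgeR. DESeq2, which called 4.49% of all genes, called 5 of them (Stk11, Nectin1, Wasl, F2rl1 and Tmprss2), and limma-voom called 0 of all 14107 genes. In the edgeR fit 14 (12.4%) had an unadjusted p below 0.05, 9 higher and 5 lower, close to the share of all genes. None of the 18 other claudin genes found in the table was abundant enough to test, and the highest level among them was 0.908 CPM, of the endothelial claudin gene Cldn5 in KO73. Of 20 other tight junction genes 1 was higher and 0 were lower before adjustment (5.0%, against 12.1% of all genes). It was Igsf5, which encodes a junctional adhesion protein (0.74 ± 0.29; 44.6 ± 14.8 against 26.8 ± 6.80 CPM), and its groups overlapped. Sympk had a log2 fold change of -0.28 ± 0.17. Of 16 other polarity genes 2 were higher and 1 lower before adjustment (18.8%, against 12.1% of all genes), and none passed it. Pard3b, a paralog of Pard3, was at 46.4 ± 3.37 against 29.6 ± 5.86 CPM, the GTPase gene Rac1 at 442 ± 43.1 against 328 ± 31.8 CPM, and the polarity kinase gene Stk11 at 66.3 ± 5.55 against 94.3 ± 1.83 CPM.

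Of 18 other adherens genes 0 were higher and 1 was lower before adjustment (5.56%, against 12.1% of all genes). Nectin1, an adhesion molecule that starts cell contacts, was at 28.6 ± 1.91 against 46.0 ± 3.92 CPM (-0.69 ± 0.14, adjusted p = 0.175), with Nectin3 (-0.25 ± 0.14) and Ssx2ip (-0.14 ± 0.13) next by p. Of 6 other desmosome genes 2 had a higher value at an unadjusted p below 0.05 (6.15% of all genes did) and none passed adjustment: the plaque gene Pkp3 (0.43 ± 0.15; 176 ± 15.1 against 131 ± 9.41 CPM) and Perp (0.41 ± 0.17), with desmoplakin (Dsp) at 0.39 ± 0.23. Of 18 actomyosin genes 2 (11.1%, below the 12.1% of all genes) had a higher value at an unadjusted p below 0.05 and none passed adjustment. They were Wasl, an activator of actin branching (0.58 ± 0.16; 187 ± 19.7 against 125 ± 11.9 CPM), and cortactin (Cttn, 0.39 ± 0.16), while the myosin light chain gene Myl12a had a log2 fold change of 0.32 ± 0.15. Values ± in CPM are SD over 3 libraries and those of log2 fold changes are SE.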

How the data were processed

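Intestinal RNA of 6 mice was sequenced, 3 per genotype per the series design. Per the labels' protocols, RNA was extracted with a ZYMO kit, amplified as cDNA and made into libraries with a Vazyme transposase kit; no molecular identifiers are named. The deposited raw counts per gene came from featureCounts 2.0.1 with paired reads on GENCODE M23, per the file headers, and the submitters' processing notes name fastp, HISAT2 and mm10. The header holds no strand option, so sense and antisense reads were not told apart. The exon length column (unit: other) was deposited by the authors in the same table and was used for CPM per kb.

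Columns were assigned to groups by name, and carry no replicate number. Symbols came from GENCODE M21 (55154 of 55335 rows matched). The fit used filterByExpr, TMM and the two-sided quasi-likelihood F test of edgeR 4.0.16 (R 4.3.3) with genotype as the only term and Benjamini-Hochberg adjustment over 14107 genes, checked on simulated data. The SE is the log2 fold change divided by the square root of F. Log2 CPM used a prior count of 2. Alternatives used DESeq2 1.42.0, limma 3.58.1, other scalings and filters, omitted libraries, and 2 covariates. The regional index subtracts the mean log2 CPM of Cybrd1, Fabp1, Gata4 and Lct from that of Fabp6, Fgf15, Slc10a2 and Slc51b, and the epithelial index averages the log2 CPM of Krt8, Krt18, Krt19, Vil1, Ezr and Lgals4. Values in every library are given for members at an unadjusted p below 0.05, all tested claudins, Ocln, Tjp1, Cdh1, Epcam and Mylk, and up to 3 genes at 5 CPM or more are named from each pathway list by smallest p. One gene that this rule names is not reported here. The members and lists were chosen with earlier results of these data known. Counting intervals and floors cover counting error only.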

Additional observations from a re-analysis of the deposited data

How the results depend on the processing

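No member passed adjustment under any of the 16 other fits. At an unadjusted p below 0.05 the 8 members became 4 with library totals (12.1% of all genes), 14 with sample quality weights in limma-voom (24.1%), 1 with the epithelial covariate (9.44%) and 1 to 6 when a library was left out (7.14% to 14.5%). The median log2 fold change was 0.10 to 0.23 in the other fits, and 0.13 to 0.23 when a library was left out, but -0.068 with the epithelial covariate. Pathway genes past adjustment numbered 5 with DESeq2, 2 with sample quality weights and 1 without a low-count filter, against 0, an alternative chosen after seeing the data. Of 544 values of a member under another fit, 504 kept their direction and 40 turned, and 0 passed adjustment. Those that turned with the epithelial covariate were Cldn2 (-0.28), Cldn4 (-0.14), Marveld2 (-0.085), Tjp3 (-0.084), Magi3 (-0.097), Pard3 (-0.091), Cdh1 (-0.073), Epcam (-0.27), Dsc2 (-0.063) and Jup (-0.26). With the regional covariate they were Cldn2 (-0.57), Tjp3 (-0.077), Cdh1 (-0.035), Epcam (-0.00062) and Jup (-0.055), with library totals Tjp3 (-0.00045), Magi3 (-0.041) and Pard3 (-0.018), and with sample quality weights Cldn8 (0.097), Cgnl1 (0.051), Magi1 (0.030) and Magi3 (-0.013). Left-out libraries turned Cldn2 (-0.069 to 1.41), Cldn3 (-0.14 to 0.036), Cldn8 (-1.62 to 0.998), Cldn23 (-0.40 to 0.049), Tjp3 (-0.028 to 0.20), Cgn (-0.045 to 0.25), Cgnl1 (-0.99 to 0.46), Magi1 (-0.14 to 0.067), Magi3 (-0.056 to 0.12), Pard3 (-0.055 to 0.13) and Jup (-0.0032 to 0.22). The cause was not tested. The pore minus sealing difference between groups ran from -0.83 to -0.054 when a library was left out, was -0.82 without the least abundant gene of each side and -0.41 with Cldn7 added, and was -0.57 over Cldn2 and Cldn15 against Cldn3, Cldn4 and Cldn7, a set chosen after seeing the data. No paired analysis was possible because the columns carry no replicate number. With 3 libraries a group, and counts as low as those of Cldn1, Cldn8 and Cgnl1, small differences could not be resolved.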

Other observations

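The list of proteases and receptors that act on junctions held F2rl1, the gene with the lowest p of the pathway lists. Of 13 such genes tested, 0 passed after adjustment by edgeR and 3 had an unadjusted p below 0.05 (23.1%, against 12.1% of all genes), 2 higher and 1 lower. F2rl1, the gene of the protease-activated receptor PAR2, stood at 104.6, 125 and 88.9 CPM (KO72, KO73, KO75) against 47.4, 53.1 and 50.5 CPM (WT185, WT186, WT187). Every library labelled Trmt6-/- lay above every WT library (log2 fold change 1.08 ± 0.16, unadjusted p = 3.22e-04, adjusted p = 0.111). DESeq2 gave it an adjusted p of 2.15e-05, limma-voom with sample quality weights 0.0182 and edgeR without a low-count filter 0.0310, while no other fit passed. These fits called 633, 385 and 159 genes in all. Tmprss2, a membrane serine protease gene, stood at 179, 164 and 173 CPM against 298, 305 and 234 CPM (-0.70 ± 0.17, unadjusted p = 0.00462, adjusted p = 0.210), also without overlap. Adam10, a sheddase gene whose substrates include E-cadherin, was at 184 ± 8.29 against 146 ± 9.12 CPM (SD, n = 3 each).

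Of 22 transcription regulators of junction genes, 0 passed after adjustment and 2 were lower before it (9.09%, against 12.1% of all genes), Ovol2, a repressor of mesenchymal genes (10.4 ± 1.44 against 17.4 ± 5.13 CPM; SD, n = 3 each), and the vitamin D receptor gene Vdr (357 ± 89.2 against 597 ± 163 CPM). Hnf4g, a nuclear receptor gene of enterocytes, stood at 293, 325 and 309 CPM (KO72, KO73, KO75) against 280.2, 784 and 484 CPM (WT185, WT186, WT187).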
